A study of Mus musculus with 9 samples.

Results

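The mitosis and cytokinesis genes described here are a list of 45 genes: CDK1 with its cyclins and regulators, the mitotic kinases, the chromosomal passenger complex, the spindle checkpoint, the machinery of anaphase onset, centromere and kinetochore proteins, kinesin motors, spindle proteins, cytokinesis proteins and a pair of mitotic chromosome proteins. They were found by symbol among the 46958 genes of the deposited table. All 45 were present and all 45 were among the 14199 genes that passed the filter on low counts. Their levels were compared by RNA sequencing in plasma cells, the antibody-secreting cells of the B lineage, taken from mouse spleens.

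Each of the 9 libraries held the CD138-positive cells of 1 spleen, collected with magnetic beads from a mouse aged 3 months that had not been immunized, and the bead fraction was not pure. All mice had the mixed C57/BL6x129/SVxBALB/c background, and 3 mice were sampled per genotype: WT, DH-LMP2A and kFRA (LCDD). Per the title, the series concerns a monoclonal free light chain of LCDD and its toxicity to plasma cells. LCDD is light chain deposition disease, in which immunoglobulin light chains are deposited in tissues. The alleles and promoters behind the genotype names are not described further in the labels, nor is the sex of the mice.

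A cell enters mitosis when CDK1 is switched on by cyclin A and cyclin B. Chromosomes then condense, attach through their kinetochores to spindle microtubules, and separate once the spindle checkpoint releases the anaphase-promoting complex, after which cytokinesis divides the cell. Transcripts of these genes accumulate in the later part of the cell cycle and are low in resting cells. In the B lineage, plasmablasts still divide, whereas mature plasma cells have left the cell cycle. In bulk RNA, fewer dividing cells and less RNA per dividing cell cannot be told apart.

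Many promoters of late cell cycle genes carry a cell cycle genes homology region (CHR), through which the DREAM and B-MYB complexes bind, and CCAAT boxes, which bind NF-Y. The promoters are shown because in most members kFRA 1 and 3 lay below kFRA 2 and below the DH-LMP2A libraries. Windows from 250 bases before to 50 bases after the annotated start were taken from RefSeq (GRCm38.p6) and matched 38 of the 45 members, with 40 windows. Incenp, Aurkb, Ccna2, Cdc25c, Kif20a, Tpx2 and Dlgap5 had no window. The 150 bases before the start are printed for Ccnb2 (chr9:70421555-70421704, minus strand), Kif11 (chr19:37376232-37376381, plus strand), Mki67 (chr7:135716380-135716529, minus strand) and Top2a (chr11:99024190-99024339, minus strand), which followed this pattern. They are also printed for Racgap1 (chr15:99651657-99651806, minus strand) and Bub1b (chr2:118598061-118598210, plus strand), whose levels departed from it. Capitals mark CHR matches (TTTGAA, or TTCAAA on the other strand) and CCAAT boxes (CCAAT, or ATTGG on the other strand).
Ccnb2: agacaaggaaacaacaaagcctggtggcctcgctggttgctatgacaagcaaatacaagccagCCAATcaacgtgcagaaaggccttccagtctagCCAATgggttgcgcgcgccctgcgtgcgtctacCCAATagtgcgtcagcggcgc
Kif11: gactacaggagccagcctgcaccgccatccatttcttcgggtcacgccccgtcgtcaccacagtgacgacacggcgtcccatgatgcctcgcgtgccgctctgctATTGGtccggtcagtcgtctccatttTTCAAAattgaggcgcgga
Mki67: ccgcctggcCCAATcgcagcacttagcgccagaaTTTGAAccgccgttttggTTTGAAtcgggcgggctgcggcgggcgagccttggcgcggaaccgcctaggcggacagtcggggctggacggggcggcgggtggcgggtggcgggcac
Top2a: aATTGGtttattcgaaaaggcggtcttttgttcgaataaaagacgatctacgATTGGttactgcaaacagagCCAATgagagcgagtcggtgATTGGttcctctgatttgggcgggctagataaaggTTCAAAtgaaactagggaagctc
Racgap1: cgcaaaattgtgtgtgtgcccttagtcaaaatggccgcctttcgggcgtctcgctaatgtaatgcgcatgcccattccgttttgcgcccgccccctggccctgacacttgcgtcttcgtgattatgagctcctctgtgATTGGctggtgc
Bub1b: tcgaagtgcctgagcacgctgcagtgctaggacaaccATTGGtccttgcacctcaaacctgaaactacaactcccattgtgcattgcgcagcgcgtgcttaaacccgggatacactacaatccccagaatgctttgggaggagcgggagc

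Ccnb2 showed 3 CCAAT boxes in this stretch, with first bases at −87, −54 and −21 counted from the start. Kif11 had 1 CCAAT box at −45 and a CHR match at −19, and Mki67 had CHR matches at −116 and −98. Top2a held more CCAAT boxes than the other printed promoters and a CHR match at −23. In Racgap1 and Bub1b the CHR match lay after the start, at 6 and 41, outside the printed stretch. The same was true of the second CHR match of Ccnb2, at 5. A CHR match after the start was not particular to the genes that departed from the pattern. Members that followed it also had their CHR match there, among them Cenpf at 3, Hmmr at 9 and Plk1 at 31. Any link between the position of a match and the level of a gene was not tested.

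Over both strands, 30 of the 40 member windows (75.0%) held TTTGAA, against 17.9% of the 32851 windows in RefSeq's table. A CCAAT box was present in 77.5% of member windows against 37.4% of all windows, and at least 2 were present in 52.5% against 11.7%. The variant TTTAAA, which reads the same on both strands, was found in 25% of member windows and 13.2% of all. A CHR of either spelling together with a CCAAT box occurred in 70.0% of member windows and 10.7% of all. In 2 member windows a pair of these matches shared bases. The windows of Mad2l1, Melk, Nuf2 and Nusap1 held none of the motifs. A match is a match of letters, and binding was not measured.

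**Figure D1:**
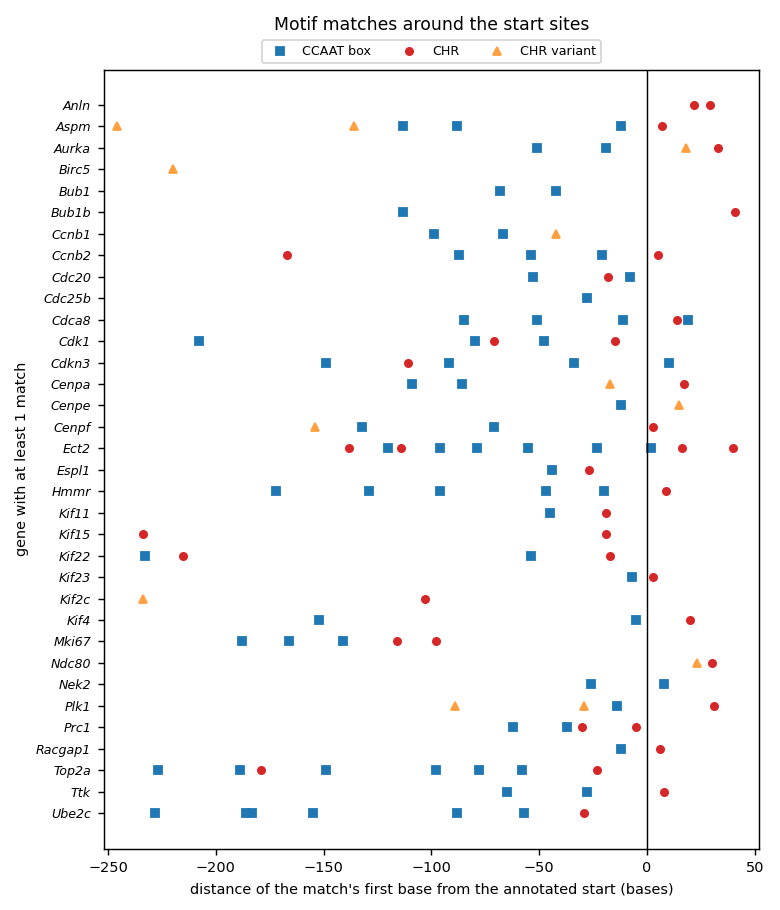
Position of motif matches in the promoter windows of the members with at least 1 match; the x axis gives the distance in bases of the match's first base from the annotated start, and each row is 1 gene. Squares are CCAAT boxes, circles CHR matches and triangles the CHR variant; most matches lie within 100 bases before or 50 bases after the start, and 2 genes (Ect2 and Prc1) have the matches of 2 windows drawn on 1 row.

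Total counts ranged from 15449026 to 21558128 per library, and 3 counts, taken as the floor of detection, corresponded to 0.127 to 0.205 CPM (counts scaled by TMM factors to a common library total). All members lay above that floor in every library. Per kilobase of exon, Mki67 had the highest mean level over the 9 libraries at 29.3 CPM per kb, followed by Cdc20 at 13.5, Bub1b at 11.6, Incenp at 10.7 and Cdc25b at 9.95. Cenpf at 0.677 and Ttk at 0.598 CPM per kb were the lowest. Mki67 encodes the proliferation antigen Ki-67, which coats mitotic chromosomes. Its level weighs most in the summed values given next, so counts of genes are given beside the sums.

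The labelled cell type was checked against 8 plasma cell markers, whose summed level was 18890 to 24141 CPM in WT, 34147 to 47160 in DH-LMP2A and 20401 to 32064 in kFRA, with none at 0 in any library. The markers did not all move together. In DH-LMP2A against WT 3 of the 8 were called higher and 1 lower (edgeR, adjusted p under 0.05, 5.07% and 7.30% of all genes). For kFRA against WT the counts were 2 higher and 1 lower (6.68% and 11.1% of all genes). Xist, the X-inactivation transcript of female cells, was above 100 CPM in DH-LMP2A 1 and 2, kFRA 2, WT 1 and WT 3, and at most 4.48 CPM in the other 4 libraries. Libraries are named below by genotype and replicate, and called Xist-high or Xist-low on this basis. Ddx3y, a gene of the Y chromosome, was at 40.8 to 55.8 CPM in the Xist-low libraries and at 0 in the Xist-high ones. The labels give no sex, but these levels match female mice for the Xist-high and male mice for the Xist-low class. Every genotype held both classes, but kFRA 2 was the single Xist-high library of its genotype. In kFRA, Xist class and the identity of this library cannot be told apart. The same holds for DH-LMP2A 3 and WT 2, each the single Xist-low library of its genotype.

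The 45 genes together took 0.156%, 0.144% and 0.105% of the counts in DH-LMP2A 1, 2 and 3, and 0.0933%, 0.0666% and 0.0749% in WT 1, 2 and 3. In kFRA they took 0.0428%, 0.146% and 0.0533%. Their summed level was 1198.8 ± 183.2 CPM (SD, n = 3) in DH-LMP2A, 886.8 ± 133.7 (SD, n = 3) in WT and 747.6 ± 393.0 (SD, n = 3) in kFRA. The kFRA libraries were at 452.7, 1193.8 and 596.3 CPM, so kFRA 2 lay within the DH-LMP2A range (1000.9 to 1362.5) and the other kFRA libraries lay below every library of the other genotypes. In both DH-LMP2A and WT the lowest sum was that of the Xist-low library, 1000.9 CPM in DH-LMP2A 3 and 732.5 in WT 2.

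Single genes were counted as well. kFRA 2 was the highest kFRA library in 42 of the 45 members, where it was the highest for 43.6% of all genes tested, and kFRA 1 the lowest in 44 (23.5%). DH-LMP2A 3 was the lowest of its genotype in 39 members (37.7% of all genes), and WT 2 in 42 (23.9% of all genes). The median ratio of the highest to the lowest library within a genotype was 1.36 in DH-LMP2A, 1.505 in WT and 2.74 in kFRA, reaching 5.01 in kFRA for Hmmr, a spindle-associated hyaluronan receptor. By this measure, taken over the members alone, the kFRA mice were spread more widely than those of the other genotypes. Over all genes, pairs of replicates differed by a chi-square per degree of freedom of 13.3 to 97.9 in kFRA. The range was 76.9 to 116 in WT and 12.7 to 43.9 in DH-LMP2A, so the kFRA mice were not the most different by that measure.

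**Figure D2:**
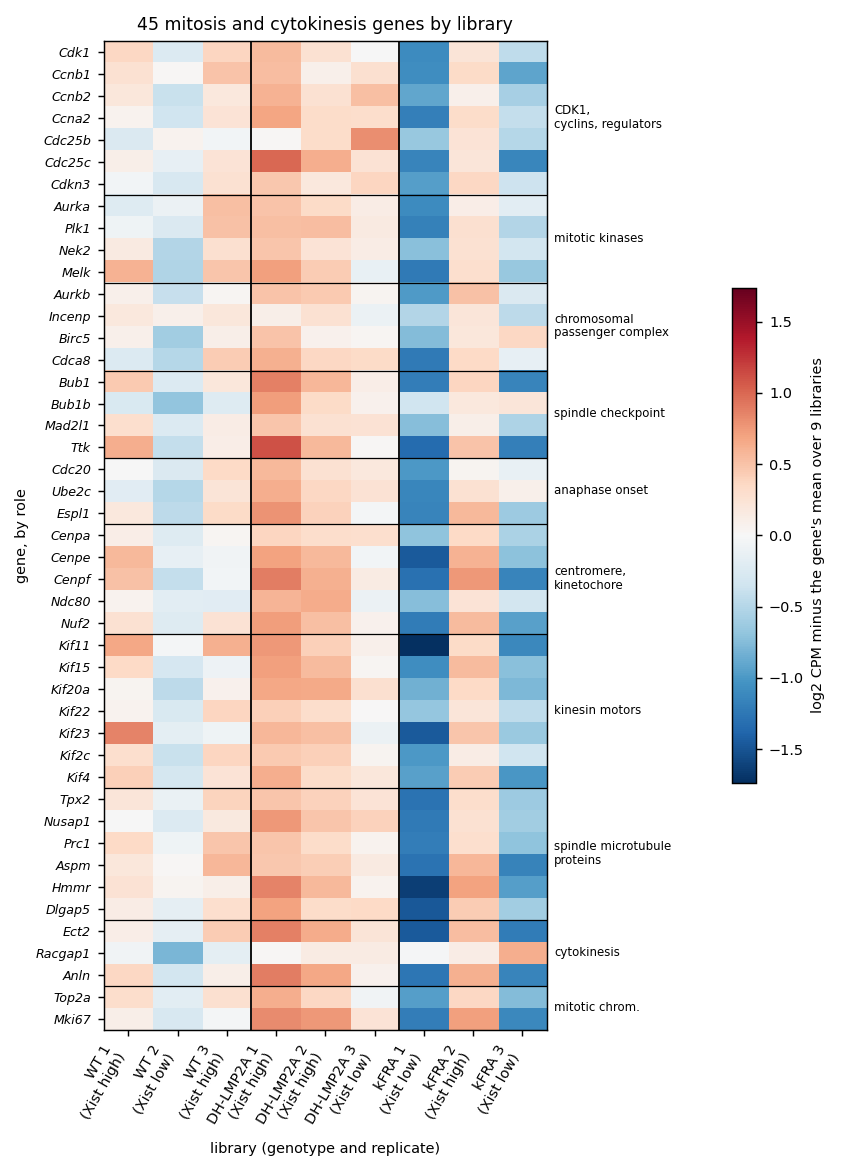
Level of the 45 genes (rows, grouped by role) in the 9 libraries (columns), as log2 CPM minus the gene's mean over the 9 libraries; red is above and blue below that mean. The columns kFRA 1 and kFRA 3 are blue in nearly all rows, kFRA 2 resembles the DH-LMP2A columns, and Racgap1, Bub1b and Birc5 break the pattern in kFRA 3.

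No member passed for any difference among the genotypes in edgeR's F test, where 19.3% of all genes did, and 4 had an unadjusted p under 0.05, against 36.5% of all genes.

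kFRA was compared with DH-LMP2A first. In this comparison 44 of the 45 members had a negative log2 fold change, against 50.4% of all genes tested, and Racgap1 was the exception. The members' median was −0.69 on the log2 scale, beside −0.0049 for all genes. None of the 45 passed an adjusted p of 0.05 in edgeR's quasi-likelihood test, where 5.02% of all genes did (1.73% higher and 3.30% lower), and 10 had an unadjusted p under 0.05, against 22.4% of all genes. DESeq2's Wald test called 2 of them, Ccnb2 and Cdc25c, both lower in kFRA, and 9.90% of all genes. The kFRA and DH-LMP2A libraries did not overlap for 6 members, all lower in kFRA (Ccnb2, Cdc25c, Aurka, Mad2l1, Cdc20 and Nusap1), against 13.9% of all genes.

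The fit without kFRA 2, which leaves 2 kFRA mice, both Xist-low, gave another count. In it 31 of the 45 members fell in kFRA against DH-LMP2A and none rose (edgeR, adjusted p under 0.05), where 22.7% of all genes were called and 11.0% were called lower. The members' median log2 fold change was then −1.16. The members themselves were part of what set this library apart, so these counts do not stand as separate evidence. kFRA 1 and 3 were both below all DH-LMP2A libraries in 42 members, which held for 29.3% of all genes. Among the Xist-low libraries alone, kFRA 1 and 3 were both below DH-LMP2A 3 in 42 members (41.7% of all genes). Among the Xist-high ones, kFRA 2 was below both DH-LMP2A 1 and 2 in 26 (38.4% of all genes) and above both in 2 (37.2%). With a covariate for Xist (log2 CPM) and kFRA 2 left out, a fit chosen after seeing the data, 19 members were called lower (12.2% of all genes called).

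**Figure D3:**
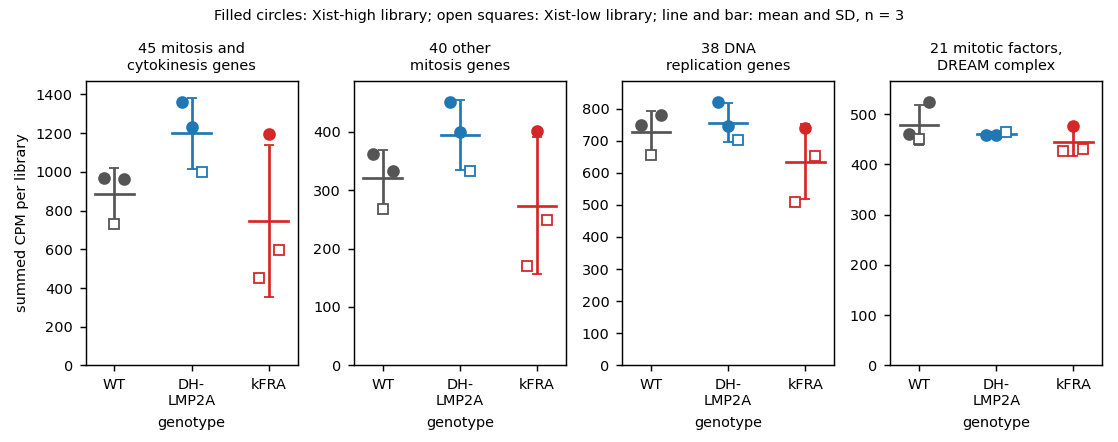
Summed CPM per library (y axis, linear from 0) of the 45 members and of 3 other cell cycle lists, by genotype; filled circles are Xist-high and open squares Xist-low libraries, and lines and bars are the mean and SD of 3 mice. In the first panel kFRA 2 at 1193.8 CPM stands among the DH-LMP2A points, while kFRA 1 and 3 at 452.7 and 596.3 lie below all WT points; the spread is narrower for the replication genes and the mitotic factors.

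CDK1 and its partners start mitosis. In this and the following paragraphs, values are CPM in replicates 1, 2 and 3 of each genotype, and log2 fold changes (with SE) are kFRA minus DH-LMP2A from all 9 libraries, with edgeR's adjusted p. Genes said to fall without kFRA 2 were called lower than in DH-LMP2A in that fit, where 11.0% of all genes were. The fit left out the library that was the highest of its genotype in 42 members, so its calls are not separate evidence. Cdk1, the kinase itself, measured 21.6, 17.8 and 14.7 in DH-LMP2A, 6.98, 17.3 and 10.9 in kFRA and 19.0, 12.5 and 19.2 in WT. kFRA 1 and 3 were the lowest of the 9 libraries, and kFRA 2 lay within the other genotypes. Its log2 fold change was −0.62 (SE 0.313, adjusted p = 0.274). Ccnb1, cyclin B1, measured 16.1, 11.8 and 13.5 in DH-LMP2A, 5.27, 14.0 and 5.90 in kFRA and 13.3, 11.3 and 15.7 in WT. Ccnb2, cyclin B2, was at 15.7, 12.4 and 14.9 in DH-LMP2A, 5.54, 11.0 and 6.96 in kFRA and 11.9, 7.91 and 11.8 in WT. Here every kFRA library was below every DH-LMP2A library, with a log2 fold change of −0.86 (SE 0.268, adjusted p = 0.107), and the WT libraries lay below DH-LMP2A and overlapped kFRA. Cdc25c encodes a phosphatase that activates CDK1, and its level was low throughout. It had 5.71, 4.45 and 3.43 CPM in DH-LMP2A, 1.30, 3.33 and 1.32 in kFRA and 3.09, 2.60 and 3.38 in WT. Its log2 fold change, −1.17 (SE 0.382, adjusted p = 0.122), was the most negative of the 45. Ccna2 (cyclin A2) and Cdc25b (another CDK-activating phosphatase) had log2 fold changes of −0.74 and −0.66, with overlapping libraries. Cdkn3, a CDK-binding phosphatase, ranged from 3.02 to 3.68 CPM in DH-LMP2A and from 1.37 to 3.43 in kFRA. Without kFRA 2, 6 of these 7 genes fell, Cdkn3 being the exception at an adjusted p of 0.058.

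The other mitotic kinases build and time the spindle. Aurka, Aurora A of the spindle poles, measured 11.0, 9.79 and 8.51 in DH-LMP2A, 3.63, 8.37 and 6.84 in kFRA and 6.63, 7.24 and 11.1 in WT. The kFRA libraries were all below the DH-LMP2A ones, kFRA 2 narrowly so, and the log2 fold change was −0.63 (SE 0.309, adjusted p = 0.261). Plk1, polo-like kinase 1, had 14.8, 14.9 and 11.4 CPM in DH-LMP2A, 4.58, 12.6 and 7.28 in kFRA and 9.83, 8.67 and 14.7 in WT. Nek2, a centrosome kinase, ranged from 10.8 to 13.8 CPM in DH-LMP2A and from 6.02 to 11.9 in kFRA. Melk, a kinase of dividing cells, ranged from 2.33 to 4.19 and from 1.09 to 3.14. Of the 4, Plk1 alone fell in the fit without kFRA 2.

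The chromosomal passenger complex corrects faulty attachments of chromosomes and later directs cytokinesis. Its 4 members had a median log2 fold change of −0.38, and none was called. Aurkb, its kinase, measured 17.1, 16.5 and 12.5 in DH-LMP2A, 6.16, 17.2 and 10.2 in kFRA and 12.9, 9.18 and 12.4 in WT. Incenp, the scaffold, had 36.2, 40.5 and 31.5 CPM in DH-LMP2A, 23.8, 39.2 and 24.7 in kFRA and 38.4, 35.8 and 38.6 in WT. Incenp was low in kFRA 1 and 3 and about level elsewhere, with a log2 fold change of −0.30 (SE 0.195, adjusted p = 0.381). Birc5, survivin, had 18.2, 13.7 and 13.3 CPM in DH-LMP2A, 7.73, 14.9 and 16.6 in kFRA and 13.7, 8.57 and 13.9 in WT. In Birc5 kFRA 3 was the highest kFRA library, and its log2 fold change of −0.20 (SE 0.297, adjusted p = 0.721) turned positive when DH-LMP2A 1 (0.014) or kFRA 1 (0.064) was left out. Cdca8, borealin, ranged from 11.9 to 14.5 CPM in DH-LMP2A and from 4.04 to 12.0 in kFRA.

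The spindle checkpoint holds cells in mitosis until all chromosomes are attached. Ttk (MPS1), the kinase at its head, was at 5.54, 3.80 and 2.61 in DH-LMP2A, 1.03, 3.62 and 1.13 in kFRA and 4.00, 1.94 and 2.80 in WT. Bub1, a kinase of the checkpoint at kinetochores, had 8.34, 6.77 and 4.94 CPM in DH-LMP2A, 1.98, 5.90 and 2.07 in kFRA and 6.23, 3.88 and 5.22 in WT. Both were about 1 log2 unit lower in kFRA (Ttk −1.02, SE 0.513, adjusted p = 0.269, and Bub1 −0.99, SE 0.423, adjusted p = 0.208). Mad2l1, the MAD2 inhibitor of the anaphase-promoting complex, measured 15.3, 13.1 and 13.04 in DH-LMP2A, 6.57, 11.8 and 7.59 in kFRA and 13.4, 9.33 and 12.0 in WT, and the kFRA libraries were all below those of DH-LMP2A. Bub1b (BUBR1), another such inhibitor, went another way. It measured 78.4, 59.7 and 49.9 in DH-LMP2A, 37.5, 54.0 and 55.2 in kFRA and 39.6, 29.5 and 40.9 in WT. Every DH-LMP2A library was above every WT library, and kFRA 2 and 3 stood near the DH-LMP2A ones. Its log2 fold changes were −0.36 (SE 0.217, adjusted p = 0.350) for kFRA against DH-LMP2A and 0.42 (adjusted p = 0.202) for kFRA against WT.

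Anaphase begins when the anaphase-promoting complex marks securin and cyclin B for destruction. Cdc20, its activator, measured 35.6, 29.0 and 27.5 in DH-LMP2A, 12.2, 24.9 and 22.1 in kFRA and 24.1, 20.4 and 30.7 in WT. All kFRA libraries were below the DH-LMP2A ones, with a log2 fold change of −0.63 (SE 0.260, adjusted p = 0.194). Ube2c, the E2 enzyme of the complex, ranged from 19.6 to 25.4 CPM in DH-LMP2A and from 7.52 to 19.8 in kFRA. Espl1 encodes separase, the protease that cleaves cohesin. It had 18.8, 14.4 and 10.7 CPM in DH-LMP2A, 4.92, 16.2 and 7.09 in kFRA and 12.5, 7.96 and 13.8 in WT. Espl1 fell in the fit without kFRA 2, at −1.22 (SE 0.334, edgeR adjusted p = 0.034), and Cdc20 and Ube2c did not pass.

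Centromere and kinetochore proteins couple chromosomes to microtubules. Cenpf, a large kinetochore protein, measured 17.1, 14.2 and 10.2 in DH-LMP2A, 3.76, 15.6 and 4.20 in kFRA and 13.1, 6.94 and 8.98 in WT. Cenpe, a kinetochore motor, had 16.9, 15.3 and 10.1 CPM in DH-LMP2A, 3.76, 15.7 and 6.34 in kFRA and 15.2, 9.39 and 9.94 in WT. In both genes kFRA 2 was well above the other kFRA mice, 3.92 times their mean for Cenpf and 3.12 times for Cenpe. Cenpa, the centromeric histone H3 variant, was steadier, at 27.6, 26.4 and 26.0 in DH-LMP2A, 13.1, 26.9 and 14.5 in kFRA and 23.0, 18.2 and 21.8 in WT. Ndc80 and Nuf2 are subunits of the complex that grips microtubules. Nuf2 had a log2 fold change of −0.76 (SE 0.423, adjusted p = 0.311), and Ndc80 ranged from 3.94 to 6.59 CPM in DH-LMP2A and from 2.53 to 4.995 in kFRA. Without kFRA 2, 4 of the 5 fell, all but Ndc80.

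Kinesin motors push, slide and bundle spindle microtubules. Kif11 (Eg5), which pushes the spindle poles apart, measured 27.6, 21.9 and 17.4 in DH-LMP2A, 4.92, 20.6 and 7.53 in kFRA and 26.1, 16.1 and 25.2 in WT. kFRA 1 and 3 were far below the other libraries and kFRA 2 was among them, giving a log2 fold change of −1.004 (SE 0.458, adjusted p = 0.233). Against WT the value was −1.01 (adjusted p = 0.150). It passed in that comparison with Xist as a covariate (−0.96, adjusted p = 0.049) and without kFRA 2 (−1.78, adjusted p = 0.005). Kif20a, which brings the passenger complex to the central spindle, and Kif23, part of centralspindlin, had log2 fold changes of −0.86 and −0.67 against DH-LMP2A. The remaining kinesins Kif15, Kif22, Kif2c and Kif4 ranged from 5.31 to 13.9 CPM in DH-LMP2A and from 2.46 to 12.1 in kFRA. Without kFRA 2, 5 of the 7 kinesins fell, and Kif22 and Kif2c did not pass.

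Microtubule-binding proteins shape the spindle and bundle its fibres. Tpx2, which activates Aurora A, measured 23.8, 22.5 and 20.1 in DH-LMP2A, 6.98, 21.03 and 11.0 in kFRA and 19.7, 15.8 and 22.2 in WT. Nusap1, a spindle-bundling protein, had 18.6, 15.3 and 14.5 CPM in DH-LMP2A, 4.72, 13.2 and 7.28 in kFRA and 10.9, 9.39 and 12.4 in WT. Nusap1 was lower in every kFRA than in every DH-LMP2A library, with a log2 fold change of −0.93 (SE 0.320, adjusted p = 0.137). Hmmr was at 16.6, 13.5 and 9.52 in DH-LMP2A, 2.94, 14.7 and 4.70 in kFRA and 10.9, 9.39 and 9.81 in WT. Aspm, a spindle-pole protein, and Prc1, which bundles the central spindle, had log2 fold changes of −0.70 and −0.69. Dlgap5, a protein that stabilises kinetochore fibres, ranged from 8.81 to 11.5 CPM in DH-LMP2A and from 2.53 to 9.56 in kFRA. All 6 fell in the fit without kFRA 2, where Aspm stood at −1.51 (SE 0.223, edgeR adjusted p = 0.005).

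Cytokinesis genes split. Ect2, the exchange factor that activates RhoA at the division plane, measured 9.27, 7.93 and 5.95 in DH-LMP2A, 1.85, 7.33 and 2.20 in kFRA and 5.47, 4.54 and 6.88 in WT. Anln, anillin of the contractile ring, had 6.90, 5.94 and 3.94 CPM in DH-LMP2A, 1.57, 5.76 and 1.69 in kFRA and 4.81, 3.01 and 4.01 in WT. In both, kFRA 1 and 3 were the lowest of the 9 libraries, and without kFRA 2 they fell by 1.87 and 1.71 on the log2 scale. Racgap1, the GTPase-activating partner of Kif23 in centralspindlin, did not. It measured 34.1, 36.8 and 36.8 in DH-LMP2A, 32.9, 36.5 and 51.6 in kFRA and 32.0, 19.4 and 29.7 in WT. All 3 kFRA libraries were above all WT libraries, kFRA 1 narrowly, with a log2 fold change of 0.58 (adjusted p = 0.093). Against DH-LMP2A the value was 0.17 (SE 0.216, adjusted p = 0.676), and it became −0.048 without kFRA 3. Racgap1 shares sequence with a transcript of another gene, so its counts are uncertain.

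Of the mitotic chromosome proteins, Mki67 measured 469.4, 447.0 and 312.7 in DH-LMP2A, 115.3, 433.4 and 122.4 in kFRA and 283.3, 218.5 and 257.7 in WT. Top2a, the topoisomerase that untangles sister chromatids, measured 107.9, 89.8 and 66.9 in DH-LMP2A, 36.0, 89.2 and 41.5 in kFRA and 86.3, 61.6 and 84.8 in WT. In both, kFRA 1 and 3 were below all other libraries and kFRA 2 was at the DH-LMP2A level. The log2 fold changes against DH-LMP2A were −0.87 (SE 0.462, adjusted p = 0.290) for Mki67 and −0.66 (SE 0.334, adjusted p = 0.269) for Top2a. The fit without kFRA 2, the highest kFRA library in both genes, gave −1.72 (SE 0.222) and −1.13 (SE 0.239), and both passed.

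**Figure D4:**
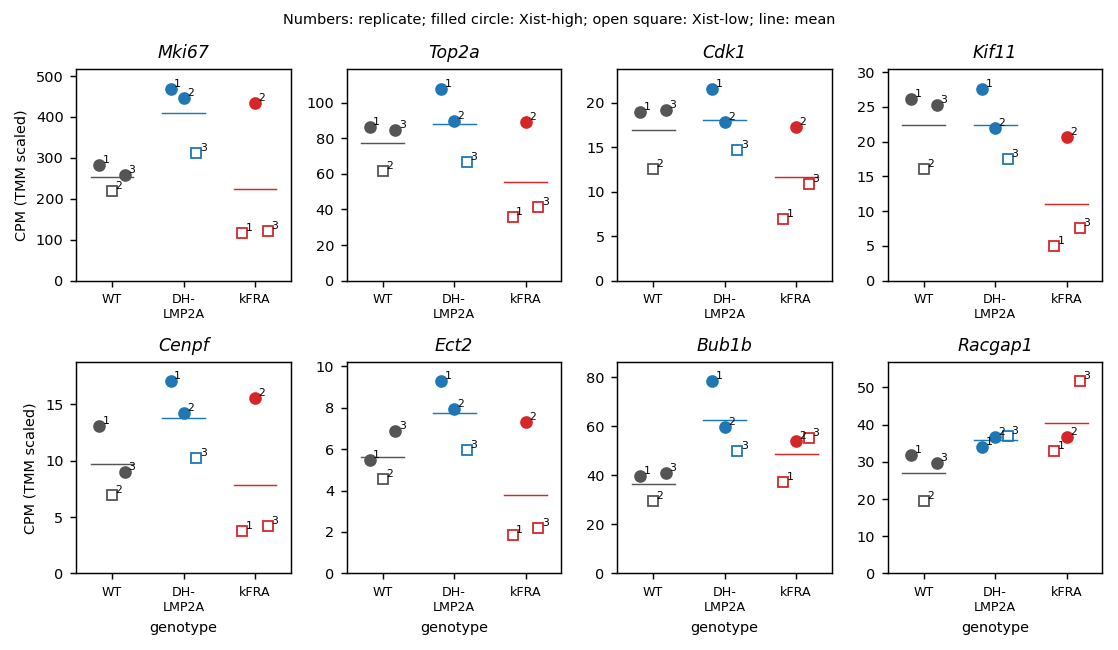
CPM of 8 members in each library (y axis linear from 0, libraries grouped by genotype on the x axis); numbers are replicates, filled circles Xist-high, open squares Xist-low libraries, and lines the means. In Mki67, Top2a, Cdk1, Kif11, Cenpf and Ect2 the kFRA points split into kFRA 2 against kFRA 1 and 3, while Bub1b and Racgap1 show no such split.

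**Figure D5:**
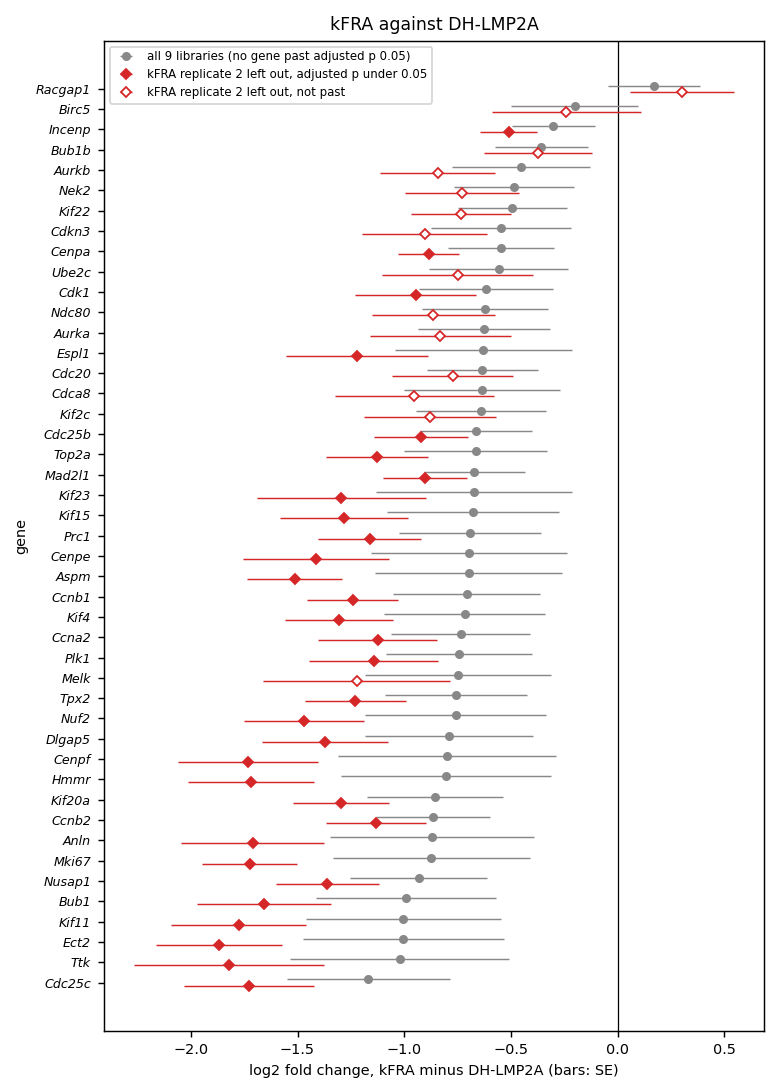
Log2 fold change of each member, kFRA minus DH-LMP2A, with SE bars; grey circles use all 9 libraries and red diamonds leave out kFRA 2, filled where the adjusted p is under 0.05. None of the grey points passes and 31 of the red ones do, while Racgap1 is above 0 and Birc5 nearest below it in both fits. As kFRA 2 was the highest kFRA library in most members, the red points are not separate evidence.

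Against WT, kFRA showed smaller differences, and this comparison shares its kFRA libraries with the one before. Of the 45 members 42 had a negative log2 fold change, against 52.6% of all genes, and Birc5, Bub1b and Racgap1 were the exceptions. The median was −0.40, beside −0.038 for all genes. None of the 45 passed in edgeR, where 17.8% of all genes did (6.68% higher and 11.1% lower), and 1, Racgap1, had an unadjusted p under 0.05, against 35.0% of all genes. DESeq2 called none. Racgap1 was also the single member whose libraries did not overlap, higher in kFRA, against 14.2% of all genes, and no member was lower without overlap, against 20.2%. With library size alone in place of TMM scaling, the median of all genes moved by 0.21 in this comparison, 29 rather than 42 members were negative, and Racgap1 passed (adjusted p = 0.039).

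Leaving out kFRA 2 changed this count too: 26 members were then called lower than in WT, and Racgap1 higher at 0.71 (adjusted p = 0.049), where 38.8% of all genes were called and 20.0% were called lower. The limit given for the fit against DH-LMP2A holds here as well. kFRA 1 and 3 were both below all WT libraries in 35 members (34.9% of all genes). Among Xist-low libraries they were both below WT 2 in 36 (47.8%). Among Xist-high ones kFRA 2 was above both WT 1 and 3 in 25 members (32.1%) and below both in 7 (35.2%). By these counts kFRA 2 was more often above than below the Xist-high WT mice, and kFRA 1 and 3 were mostly below WT. With Xist as a covariate and kFRA 2 left out, 17 members were called, 15 lower and 2 higher (29.4% of all genes called).

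DH-LMP2A, set against WT, had the higher levels. 43 of the 45 members had a positive log2 fold change, all but Incenp and Kif11, where 50.9% of all genes had a negative one, and the median was 0.35, beside −0.0081 for all genes. This comparison shares its DH-LMP2A and WT libraries with the others. 1 member, Bub1b, passed in edgeR, where 12.4% of all genes did (5.07% higher and 7.30% lower), and no other had an unadjusted p under 0.05, where 26.6% of all genes did. Bub1b rose by a log2 fold change of 0.77 (adjusted p = 0.048). The call was lost when DH-LMP2A 1 or 2 or any of the WT libraries was left out (adjusted p = 0.072 to 0.181), and also without kFRA 2 (0.78, adjusted p = 0.051). In the fit without kFRA 2, Mki67 was called higher in DH-LMP2A instead (0.70, SE 0.187, adjusted p = 0.038), where 16.3% of all genes were called. The libraries did not overlap for 11 members, all higher in DH-LMP2A, against 17.5% of all genes. These were Bub1b, Ccna2, Ccnb2, Cdc25c, Cenpa, Dlgap5, Kif20a, Mki67, Nusap1, Racgap1 and Ube2c. Among Xist-low libraries WT 2 was below DH-LMP2A 3 in 44 members (49.8% of all genes), and among Xist-high ones WT 1 and 3 were both below DH-LMP2A 1 and 2 in 27 (25.1%).

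Markers of other cells moved with this comparison. The 7 measured erythroid markers summed to 2294 to 12132 CPM in DH-LMP2A, 1039 to 2465 in kFRA and 46.9 to 312.8 in WT, and none was at 0 in any library. Alas2, of haem synthesis, and the globins Hba-a1 and Hbb-bs were each higher in DH-LMP2A and in kFRA than in WT (edgeR, adjusted p = 0.005 to 0.032). No other marker of the 7 was called against WT. Of all genes, 5.07% were called higher in DH-LMP2A and 6.68% in kFRA. In each of these comparisons 6 of the 7 had a positive log2 fold change and 1 a negative one. The negative value was −0.74 in DH-LMP2A, where 1 marker was lower than WT without overlap of libraries, and −0.25 in kFRA. With the mean log2 CPM of these markers as a covariate, the members' median for DH-LMP2A against WT was −0.049, with 26 of 45 negative, and Bub1b no longer passed. That mean ran from 1.06 to 3.37 in WT and from 4.70 to 6.59 in DH-LMP2A, without overlap. The fit therefore cannot separate these markers from genotype, and nothing is concluded from it for this comparison. Within DH-LMP2A, replicate 3 had the highest erythroid sum (12132 CPM) and the lowest sum of the 45 genes (1000.9 CPM). The covariate left kFRA against DH-LMP2A at a median of −0.64.

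The 8 germinal centre B cell markers, of which 6 were tested, summed to 55.0 to 87.1 CPM in WT, 21.4 to 28.4 in DH-LMP2A and 12.0 to 18.6 in kFRA, with up to 2 of them at 0 in a DH-LMP2A or kFRA library. Fas, Bcl6 and Gcnt2 of this list all fell in kFRA against WT, by 1.99, 2.06 and 3.07 on the log2 scale. Of the 6 tested, 4 were called lower than WT in kFRA and 2 in DH-LMP2A (edgeR, 11.1% and 7.30% of all genes). Myeloid markers summed to 1930 to 3297 CPM in WT, 493.4 to 1482 in DH-LMP2A and 832.1 to 1451 in kFRA, with 1 at 0 in 4 libraries. Of the 7 myeloid markers tested, 4 were called lower than WT in kFRA and 1 in DH-LMP2A, against the same shares of all genes. The B cell markers summed to 540.5 to 634.7 CPM in kFRA, 731.6 to 1103.5 in DH-LMP2A and 630.8 to 916.1 in WT, with none at 0. Of these 8 markers 4 were called lower in kFRA than in WT (edgeR, 11.1% of all genes). Against DH-LMP2A 2 were called lower in kFRA (3.30% of all genes), and 0 were called higher in either comparison. T and NK cell markers summed to at most 97.3 CPM in any library, with none at 0. Within kFRA, replicate 2 had the lowest plasma cell sum (20401 CPM against 30483 and 32064) and the highest myeloid sum (1451 against 842.4 and 832.1). The part of these markers in the members' values was not tested, beyond the erythroid covariate. In DH-LMP2A against WT that covariate cannot be told apart from genotype.

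The rest of the cell cycle was read from lists of other genes. For kFRA against DH-LMP2A, all 40 other mitosis genes had negative log2 fold changes, against 50.4% of all genes, with a median of −0.62. None of the 40 was called in edgeR (5.02% of all genes), and 5 had an unadjusted p under 0.05 (22.4% of all genes). The summed level of the 40 was 170.7, 401.3 and 248.4 CPM in kFRA and 331.9 to 451.2 in DH-LMP2A, the same order as for the 45. Without kFRA 2, 18 of the 40 fell, where 11.0% of all genes were called lower. One of the 40, Pttg1, the securin that restrains separase, went its own way, with 18.1, 15.6 and 13.7 CPM in WT mice, 8.38, 7.47 and 7.28 in DH-LMP2A and 3.76, 6.14 and 6.27 in kFRA. All WT libraries were above all others. It fell against WT in DH-LMP2A (−1.03, SE 0.211, edgeR adjusted p = 0.012) and in kFRA (−1.54, SE 0.217, adjusted p = 0.002), the only one of the 40 called in either comparison. Of all genes, 7.30% and 11.1% were called lower there. Smc4, a condensin subunit, and Spc25, of the Ndc80 complex, had log2 fold changes of −0.36 and −0.78 in kFRA against DH-LMP2A and were not called.

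DNA replication precedes mitosis. In kFRA against DH-LMP2A the median over the 38 replication genes was −0.36 on the log2 scale, with 32 of them negative (50.4% of all genes). None was called in edgeR (5.02% of all genes), and 8 had an unadjusted p under 0.05 (22.4%). All kFRA libraries lay below all DH-LMP2A libraries for 9 of the 38 (13.9% of all genes). Against WT, Pold1, the catalytic subunit of polymerase delta, and Mcm6, of the replicative helicase, were called lower in kFRA, and Mcm6 also in DH-LMP2A. That made 2 and 1 of the 38, where 11.1% and 7.30% of all genes were called lower. Mcm5, also of the helicase, was not called in any comparison. Pcna, the sliding clamp, had 67.3, 57.3 and 52.7 CPM in DH-LMP2A, 48.6, 57.5 and 50.1 in kFRA and 64.8, 62.0 and 67.7 in WT. Set against the summed CPM of the replication genes, that of the 45 members was 1.66, 1.66 and 1.43 times as high in DH-LMP2A, 1.29, 1.12 and 1.23 in WT and 0.887, 1.61 and 0.914 in kFRA. This ratio, in which the scaling cancels, again placed kFRA 2 with DH-LMP2A and kFRA 1 and 3 below all other libraries. Without kFRA 2, 11 of the 38 fell against DH-LMP2A, where 11.0% of all genes were called lower.

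Of 21 mitotic transcription factors and DREAM subunits, none was called in kFRA against DH-LMP2A (edgeR, 5.02% of all genes called), and the median was −0.20. An unadjusted p under 0.05 was found for 4 of the 21, against 22.4% of all genes. Foxm1, an activator of late cell cycle genes, had 28.8, 28.3 and 22.1 CPM in DH-LMP2A, 14.6, 31.9 and 16.0 in kFRA and 17.7, 12.2 and 20.8 in WT. Mybl2, which encodes B-MYB, had 7.40, 6.36 and 7.96 CPM in DH-LMP2A, 4.31, 9.04 and 3.76 in kFRA and 6.28, 4.79 and 7.26 in WT. Within kFRA both were highest in kFRA 2, as most members were, and neither was called in any comparison. Against WT the pair differed. Foxm1 in kFRA 1 and 3 lay within the WT range, with a log2 fold change of 0.31 for kFRA against WT. Mybl2 in kFRA 1 and 3 lay below all WT libraries, with a log2 fold change of −0.088. Of the list, E2f2 was called lower and Tfdp2 higher in DH-LMP2A than in WT, and Lin37, a DREAM subunit, was called higher in kFRA than in WT (0.73, SE 0.199, adjusted p = 0.035). Rbl2, a pocket protein of DREAM named after its values were seen, was called lower in kFRA than in WT (−0.45, SE 0.126, edgeR adjusted p = 0.037), with no overlap of libraries. Of the 21, 1 was thus called higher and 1 lower in each comparison with WT. Of all genes, 5.07% were called higher and 7.30% lower in DH-LMP2A, and 6.68% and 11.1% in kFRA.

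G1 cyclins, kinases and CDK inhibitors govern entry into the cycle. The median over 18 of them was −0.04 in kFRA against DH-LMP2A, with 9 of 18 negative. None was called there in edgeR (5.02% of all genes), and 3 had an unadjusted p under 0.05 (22.4%). Against WT, 5 of the 18 fell in kFRA, where 11.1% of all genes were called lower. These were Cdk6, Cdkn2a, Cdkn2b, Cdkn2d and Myc, the last a transcription factor. Cdkn2d and Myc were named after their values were seen. Cdk6, a G1 kinase, had 20.7, 18.3 and 14.0 CPM in WT, 5.33, 7.19 and 4.90 in DH-LMP2A and 3.90, 11.1 and 4.14 in kFRA, and was called lower than WT in both. Cdkn2a, an inhibitor locus that blocks CDK4 and CDK6, was called lower in both as well, and Cdkn2b in kFRA. Cdkn1b, which encodes the inhibitor p27 and was named after its values were seen, was called higher in DH-LMP2A than in WT (0.47, SE 0.119, edgeR adjusted p = 0.031). In DH-LMP2A against WT, 2 of the 18 were called lower and 1 higher, against 7.30% and 5.07% of all genes. Cdkn2c, an inhibitor known for its part in plasma cell cycle exit, measured 13.02, 11.5 and 16.0 in WT, 13.3, 12.0 and 13.9 in DH-LMP2A and 14.2, 16.3 and 11.4 in kFRA. Its libraries overlapped between all genotypes, and kFRA 2 did not stand low.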

How the data were processed

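RNA was measured in 9 libraries, 1 per mouse, grouped by the genotype in the labels. The authors deposited 1 table of raw read counts, which had not been normalized. Per the submitters' processing notes the tools were STAR 2.4.0a, featureCounts of Subread 1.5.0-p3 and DESeq2, with mm10 (GRCm38). The kit was stranded per the labels' protocols, but the strand setting of the counting is not given in the sources used here. Counts of 13 members that overlap an exon of another gene (GENCODE M21) are uncertain: Ccna2, Cdc25b, Plk1, Nek2, Cdca8, Cdc20, Ube2c, Kif20a, Kif22, Kif4, Nusap1, Prc1 and Top2a. All but Top2a overlap a gene on the opposite strand, where the strand setting matters. Top2a overlaps Gm23451 on the same strand, which no strand setting would separate. A further check with BLAST+ 2.17.0 found 18 members that share at least 150 bases at 95% identity or more with a transcript of another gene, among them Ccnb1, Mad2l1, Cenpe, Cenpf, Ndc80, Birc5, Dlgap5, Mki67 and Racgap1. Chromosomal coordinates are those of GRCm38.

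The tests used edgeR 4.0.16 in R 4.3.3: filterByExpr within groups, TMM scaling, a quasi-likelihood model over all 9 libraries with 1 coefficient per genotype, 2-sided F tests of 3 contrasts and Benjamini-Hochberg adjustment over all 14199 genes, with 0.05 as the threshold. The SE is the size of the log2 fold change divided by the square root of F. The model was tested on simulated data. Total counts set the precision, and the floor of 3 counts covers counting error only. Replicates of a genotype all differed by more than sampling noise (chi-square per degree of freedom 12.7 to 116). The replicate numbers come from the titles and name different mice.

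The members and all lists were chosen with earlier results of these data known. All 45 members are named, and of each other list the 3 tested genes with the smallest p for any genotype difference, plus Foxm1, Mybl2, Pcna, Cdkn2c and Xist. Ddx3y, given beside Xist, was added later. Not every gene the rule gives is printed, and Rbl2, Cdkn1b, Cdkn2d and Myc were added after their values were seen, to complete counts. As alternatives the fit was repeated with library size alone, with DESeq2's size factors, without a low-count filter, without immunoglobulin genes, with a replicate block, with erythroid or Xist covariates, on only the 6 libraries compared, by DESeq2 1.42.0, and leaving out each replicate in turn.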

Additional observations from a re-analysis of the deposited data

How the results depend on the processing

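The median log2 fold change of the 45 genes kept its sign under every alternative in both comparisons with kFRA. In DH-LMP2A against WT it did so under all but the erythroid covariate, where it was −0.049. That covariate also left 0 members called in DH-LMP2A against WT and 459, 784 and 269 of all genes in kFRA against DH-LMP2A, kFRA against WT and DH-LMP2A against WT. The covariate did not overlap between DH-LMP2A and WT, so there it cannot be told apart from genotype. The cause was not tested. Library size alone, which moved the median of all genes by −0.13, 0.21 and 0.34 in these comparisons, called 1 member in kFRA against WT, 2 in DH-LMP2A against WT and 1 for any genotype difference. The Xist covariate called 1 member (Kif11) in kFRA against WT and 1 for any difference, where edgeR over all 9 libraries called 0 (4 with an unadjusted p under 0.05). The shares of all genes called with library size alone or with the Xist covariate are not given here. These counts of members are therefore not read as results. DESeq2's Wald test called 2 members and 1405 of all genes in kFRA against DH-LMP2A.

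Leaving out 1 library of the genotypes compared at a time gave 0 to 31 members called, 352 to 3299 of all genes and a members' median of −1.16 to −0.43 in kFRA against DH-LMP2A. The ranges were 0 to 27, 1271 to 5632 and −0.83 to −0.09 in kFRA against WT, and 0 to 1, 932 to 1408 and 0.19 to 0.43 in DH-LMP2A against WT, with 0 to 29 members for any difference (any of the 9 left out). Without kFRA 2, a library of neither genotype, DH-LMP2A against WT had 16.3% of all genes called and Mki67 in place of Bub1b among the members. The highest counts came without kFRA 2, where the other kFRA libraries were 2 Xist-low mice. With Xist as a covariate and kFRA 2 left out, chosen after seeing the data, 19, 17 and 3 members were called in the 3 comparisons and 21 for any difference, and 1767 and 4271 of all genes in the comparisons with kFRA. Birc5, kFRA against DH-LMP2A, was then 0.14. Leaving out 1 library at a time, it ranged from −0.41 to 0.064 (0.014 without DH-LMP2A 1, 0.064 without kFRA 1), and Racgap1 from −0.048 without kFRA 3 to 0.30. The numbers of all genes called are not given for any difference in these fits. Nor are they given for the 3 members called in DH-LMP2A against WT with the Xist covariate. Those counts of members are therefore not read as results.

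The replicate block left 0 members called in DH-LMP2A against WT, Bub1b being at an adjusted p of 0.065, and changed no other call of a member. The numbers share only a name: the deviations of same-numbered libraries correlated between −0.211 and 0.196. Depth limits the least abundant members most, the lowest count of a member in any library being 15, for Ttk.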
